A study of Homo sapiens with 58 samples.

Results

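The Hedgehog pathway and a set of chondroprogenitor factors were followed in the chromatin of human cranial neural crest cells (CNCCs) carrying different amounts of SOX9. Putative regulatory elements (REs, regions of accessible chromatin) were taken from the ATAC-seq count table when their midpoint lay inside the body of GLI1, GLI2, GLI3, PTCH1, HHIP, SMO, NKX3-2, TRPS1, PTHLH or PTH1R, or within 100 kb of a GENCODE v44 start site of one of these 10 genes. The rule used position alone and found 269 of the 151457 REs in hg38, with no RE in more than 1 locus. GLI2 had 53 REs, GLI3 52, TRPS1 31, PTH1R 27, PTCH1 24, GLI1 20, SMO 18, HHIP 16, NKX3-2 14 and PTHLH 14. Each RE is named here by its gene and the distance of its centre from the gene's MANE Select start, with a minus sign for upstream, so that "GLI2 +51.8 kb" lies 51.8 kb into the direction of GLI2 transcription.

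The CNCCs were differentiated in vitro from H9, an established line of human embryonic stem cells. The SOX9 gene of SOX9-tagged cells was edited to carry FKBP12 F36V, mNeonGreen and V5, so that the degrader dTAGV-1 removes the protein, and 2 edited clones (S9CC13 and S9CC47) were used. At each dose of 0, 0.5, 1.6, 5, 16 or 500 nM dTAGV-1, 7 replicates, each 1 clone in 1 differentiation batch, were kept for 48 h. The labels tie these doses to 100, 77.9, 51.7, 25.8, 8.14 and 0.95% of untreated SOX9. Replicates S9CC13_R6 and S9CC47_R6 share differentiation batch R6, so the 7 replicates span 6 batches. WT cells, which lack the tag, were kept for 48 h at 0 or 500 nM (2 replicates each), and both genotypes had a time course of 3 h or 24 h at 500 nM with a 24 h vehicle control (2 replicates each, R4 and R5). For R5 of the SOX9-tagged time course, the sample titles and the count table name different clones. The control of every dose is the same 0 nM group, and the control of both time points is the same vehicle group, so these comparisons share samples.

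Hedgehog ligands act by binding PTCH1, which otherwise holds the membrane protein SMO inactive. Active SMO lets the GLI transcription factors turn on their targets, and GLI3 is processed to a repressor when no ligand is present. PTCH1, HHIP and GLI1 are themselves targets of the pathway and report its activity in many tissues. In cartilage, Indian hedgehog and parathyroid hormone-related protein, encoded by PTHLH and sensed by PTH1R, form a feedback loop that paces chondrocyte maturation. NKX3-2 and TRPS1 are transcription factors of chondroprogenitors, and SOX9 is needed for cells to enter the chondrocyte lineage.

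Libraries held 22.91 to 81.04 M counts, and the mean count of a locus RE over the 58 libraries ran from 28.9 to 3900 with a median of 169. Accessibility is given as CPM, the count of an RE relative to the TMM-scaled library total. SOX9 protein was not measured by this assay, so depletion itself rests on the labels. The promoters of all 10 neural crest markers examined were accessible in untreated SOX9-tagged cells (21.5 to 121 CPM per kb), against a median of 12.2 over all 34349 promoter REs, and none of 4 blood and endothelial markers had a promoter RE. Of 5 pluripotency markers 3 had a promoter RE (POU5F1 2.56, SOX2 12.4 and LIN28A 34.1 CPM per kb), as did all 3 neural markers (4.33 to 11.9), 3 of 4 chondrocyte markers (2.25 to 43.5, the highest at COL2A1) and 1 of 3 melanocyte markers (MITF, 49.1). Their part in the results was not tested. Replicate S9CC47_R8 stood far above the other 6 at GLI2 +247.6 kb and HHIP -11.2 kb, and values without it are given there. In these bulk samples, fewer cells of a type and lower accessibility in each cell cannot be told apart.

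The REs with the largest decrease after full depletion near SMO, GLI2, GLI3 and PTCH1 are shown by their central 300 bases (hg38, plus strand), since most of the results below turn on them. Capitals mark ACAAT and AACAA on either strand, the core recognised by SOX proteins and a related form. AACAA was chosen after the sequences had been seen.
GLI3 +324.6 kb, chr7:41912454-41912753: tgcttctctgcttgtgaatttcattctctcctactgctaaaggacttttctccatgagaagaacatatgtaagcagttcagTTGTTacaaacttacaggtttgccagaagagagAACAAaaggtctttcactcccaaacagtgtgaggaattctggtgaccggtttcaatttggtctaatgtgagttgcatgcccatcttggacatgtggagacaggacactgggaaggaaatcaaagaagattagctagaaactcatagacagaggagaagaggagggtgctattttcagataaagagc
GLI2 +51.8 kb, chr2:120787550-120787849: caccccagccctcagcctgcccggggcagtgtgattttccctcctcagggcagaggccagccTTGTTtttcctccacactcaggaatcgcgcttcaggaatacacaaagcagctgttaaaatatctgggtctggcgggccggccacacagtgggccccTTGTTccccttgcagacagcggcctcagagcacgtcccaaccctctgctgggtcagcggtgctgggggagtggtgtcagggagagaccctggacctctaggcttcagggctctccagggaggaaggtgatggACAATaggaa
SMO +25.5 kb, chr7:129213992-129214291: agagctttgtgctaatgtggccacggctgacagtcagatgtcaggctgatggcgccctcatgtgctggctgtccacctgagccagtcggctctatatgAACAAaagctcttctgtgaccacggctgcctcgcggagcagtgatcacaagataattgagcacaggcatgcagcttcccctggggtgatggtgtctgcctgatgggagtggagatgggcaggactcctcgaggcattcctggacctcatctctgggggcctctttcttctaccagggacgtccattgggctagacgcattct
PTCH1 +9.2 kb, chr9:95499913-95500212: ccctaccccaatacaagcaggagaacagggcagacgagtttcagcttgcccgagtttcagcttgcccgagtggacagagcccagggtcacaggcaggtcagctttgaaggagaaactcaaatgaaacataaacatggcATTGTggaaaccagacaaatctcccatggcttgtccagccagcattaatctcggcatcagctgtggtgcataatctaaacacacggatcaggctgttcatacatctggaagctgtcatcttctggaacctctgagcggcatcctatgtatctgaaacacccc

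The windows near GLI3 and SMO held no ACAAT but did hold AACAA (2 and 1 matches). The GLI2 window held 1 ACAAT and 2 matches to AACAA, and the PTCH1 window held 1 ACAAT. The same window at PTH1R +78.7 kb (log2 fold change -1.10), not shown, held no match to either form. That at HHIP -11.2 kb, also not shown, held 2 matches, 1 of them ACAAT, which overlap in a single AACAAT. Both forms are short and common: ACAAT occurred in 54.5% and AACAA in 69.4% of all REs. Among the 269 locus REs these shares were 49.4% and 68%. Among the 41 locus REs that fell at 500 nM (below), 63.4% held ACAAT, beside 61.6% of all 21114 REs that fell. For AACAA these were 78% and 76.8%. ACAAT facing ATTGT across 3 to 5 bases, an exact form of a palindrome bound by SOX9 dimers, was in 0.186% of all REs and in 0 of the 269. Only exact letters were counted. The study scored palindromes by weight matrices, which also accept inexact matches, so absence here does not mean that an RE lacks the palindrome. The letters GACCACCCA, the core bound by GLI proteins, were in 0.627% of all REs and in 5 of the 269 on either strand, including the PTCH1 promoter RE and PTCH1 -7.1 kb, which lies in an intron upstream of the main start. None of these 5 passed the test at 500 nM after 48 h, and 1 of them, GLI1 +22.1 kb, was lower at 3 h and 24 h.

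Full depletion lowered accessibility in 41 of the 269 REs and raised it in 23 (500 nM against 0 nM, 48 h, edgeR, adjusted p under 0.05). These are 15.2% and 8.55% of the REs, beside 13.9% lower and 10.2% higher over all 151457 REs, and the median log2 fold change was 0.02 in both sets. As a whole, then, the loci changed about as often as the rest of the table. The loci differed among themselves in direction. GLI3 had 14 lower and 1 higher, GLI2 13 and 3, PTCH1 4 and 1, HHIP 3 and 1, SMO 2 and 1, PTH1R 2 and 2, PTHLH 1 and 0, TRPS1 2 and 8, NKX3-2 0 and 4, and GLI1 0 and 2. GLI2 and GLI3 together thus supplied 27 of the 41 decreases from 105 of the 269 REs, and TRPS1 and NKX3-2 supplied 12 of the 23 increases from 45 REs. These pairs of loci were grouped after their counts were seen. The loci also differ in their share of REs within 1 kb of a start, which changed less often over the table (below). Such REs were 5 of 53 at GLI2 and 7 of 52 at GLI3, but 16 of 20 at GLI1. Their part in the differences between loci was not tested.

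**Figure D1:**
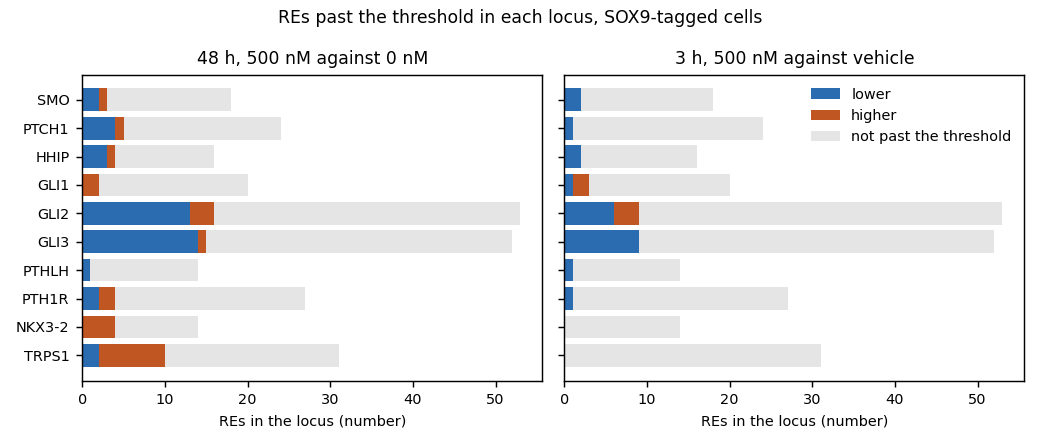
Number of REs in each locus that were lower (blue), higher (orange) or not past the threshold (grey) in SOX9-tagged cells, at 48 h (left) and at 3 h (right) of 500 nM. Lower REs lie mostly in the GLI2 and GLI3 loci at both times, and the 8 higher REs of TRPS1 appear at 48 h but not at 3 h.

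Of 74 locus REs within 1 kb of any annotated start, 7 fell and 8 rose, and of the other 195, 34 fell and 15 rose. Over the whole table, 8.29% of promoter REs fell and 6.33% rose, against 15.6% and 11.3% of other REs. The RE at the main start was accessible in untreated cells for 9 of the 10 genes, with PTHLH having none within 1 kb. Per kb of RE, the untreated levels were GLI3 78.1 ± 7.39, GLI1 70.6 ± 7.66, PTCH1 55.9 ± 1.46, SMO 51.8 ± 10.3, NKX3-2 44.7 ± 8.78, GLI2 29.1 ± 5.94, HHIP 22.0 ± 2.02, PTH1R 17.3 ± 2.24 and TRPS1 14 ± 2.77 CPM per kb (SD, n = 7). The ranges of the replicates overlapped between every pair of neighbours in this order. The elements used for GLI1, NKX3-2 and PTH1R lie 298, 366 and 490 bp from the start itself. After full depletion 8 of these 9 promoter REs did not pass the test, and the largest absolute log2 fold change among the 8 was 0.13 ± 0.08 (SE) at TRPS1. The ninth, NKX3-2, is described with its locus.

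**Figure D2:**
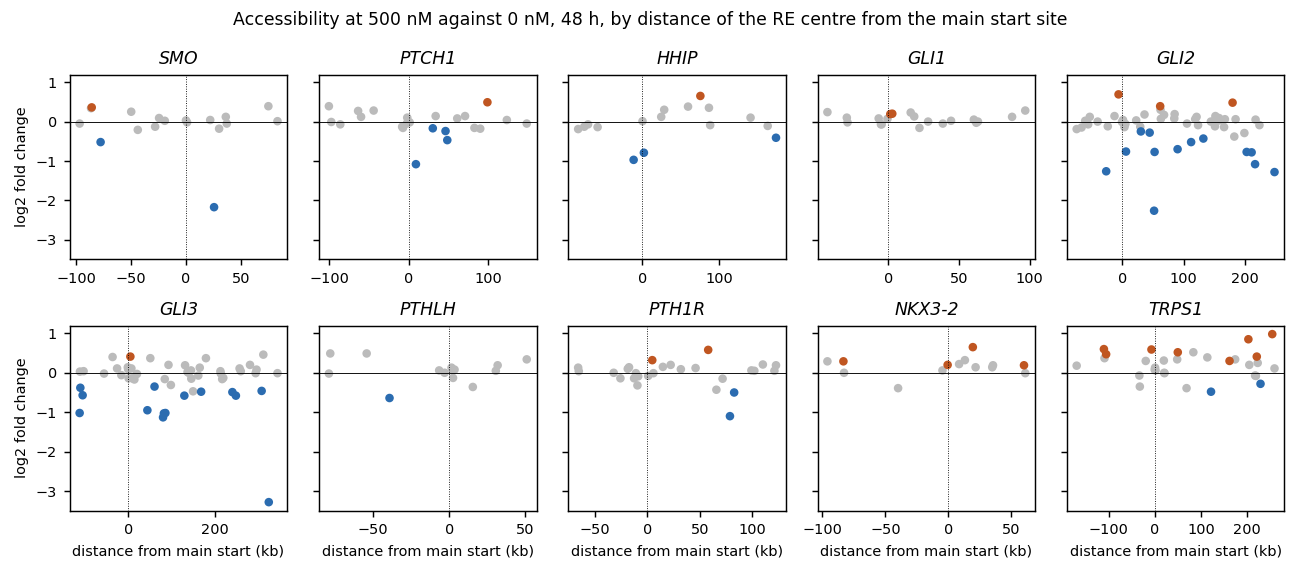
Log2 fold change at 500 nM against 0 nM (48 h, vertical axis) of every locus RE by distance of its centre from the main start of its gene (horizontal axis, kb, downstream to the right). Blue and orange points passed the test as lower and higher, and points at the start sites lie near 0 while the 3 largest decreases lie 25.5, 51.8 and 324.6 kb downstream.

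SMO, the membrane transducer of the pathway, had 1 of the largest decreases at its 3′ end. SMO +25.5 kb (chr7:129213892-129214392) starts 0.3 kb past the end of the gene, and SMO is its nearest protein-coding start. At 0 nM its accessibility ran from 20.6 to 34.1 CPM with a median of 32.1, and at 500 nM from 4.30 to 8.00 with a median of 6.37. The groups did not overlap, and the log2 fold change was -2.17 ± 0.10 (SE, adjusted p = 2.4e-14). The other changes in this locus lay far upstream, nearer to TSPAN33: SMO -77.9 kb fell by 0.52 ± 0.16 on the log2 scale, and SMO -86.0 kb rose by 0.36 ± 0.12.

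PTCH1, the receptor that restrains SMO, had 4 of 24 REs that fell (16.7%, beside 13.9% of all REs), all inside its own introns. PTCH1 +9.2 kb (chr9:95499813-95500313) was at 2.22 to 4.04 CPM (median 3.04) without dTAGV-1 and at 1.05 to 1.93 (median 1.48) at 500 nM, again without overlap. Its log2 fold change was -1.08 ± 0.16 (adjusted p = 9.4e-06). The other 3 decreases were smaller. PTCH1 +48.6 kb fell by 0.47 ± 0.12, PTCH1 +46.4 kb by 0.24 ± 0.05 from a mean of 74.3 CPM, and PTCH1 +30.4 kb by 0.17 ± 0.06, a call that was lost when any of 5 replicates was left out (S9CC13_R10, R13 or R14, S9CC47_R5 or R8, adjusted p 0.051 to 0.14). The only increase, PTCH1 +99.0 kb, lay in an intron of the neighbouring FANCC. The promoter RE itself ran from 46.4 to 50.2 CPM at 0 nM and from 43.5 to 50.3 at 500 nM.

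HHIP, a membrane protein that sequesters Hedgehog ligands, had decreases on both sides of its start. HHIP +2.2 kb (chr4:144648143-144648643), in its first kilobases, went from a median of 7.67 CPM (4.45 to 8.28) to 3.88 (3.26 to 4.80), a log2 change of -0.79 ± 0.10 (adjusted p = 2.0e-06). Its groups overlapped. HHIP -11.2 kb (chr4:144634608-144635383) ran from 1.31 to 16.9 CPM at 0 nM (median 4.37) and from 1.18 to 7.30 at 500 nM (median 2.32), with S9CC47_R8 the highest in both. It fell by 0.97 ± 0.14 on the log2 scale (adjusted p = 1.2e-05), and without S9CC47_R8 the change was -0.90 (adjusted p = 2.9e-04). In WT cells at 0 nM this RE had 11.8 CPM in R8 and 11.6 in RSh. HHIP +174.6 kb was also lower (-0.41 ± 0.11), and HHIP +75.9 kb was higher (0.65 ± 0.17).

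GLI2, the main activator among the GLI factors, had decreases spread over its whole body. GLI2 +51.8 kb (chr2:120787450-120787950, intron) was at 11.0 to 28.4 CPM at 0 nM (median 23.9) and at 2.23 to 6.55 at 500 nM (median 3.78). The groups were apart, and the log2 fold change was -2.26 ± 0.11 (adjusted p = 6.8e-14). GLI2 -26.1 kb, in an intron of a noncoding gene upstream, went from a median of 5.57 CPM (1.67 to 7.93) to 1.52 (0.991 to 2.97), a change of -1.26 ± 0.15 with overlapping groups. The other decreases lay from +6.1 kb to +247.6 kb, all in GLI2 introns, and 3 of them were also without overlap (GLI2 +6.1 kb, +131.9 kb and +202.3 kb, named after their values were seen). Over the 10 loci, 10 of 269 REs (3.72%) had non-overlapping groups at 0 and 500 nM, against 4.03% of all REs.

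GLI2 +247.6 kb (chr2:120983238-120983738, intron) differed most among replicates. At 0 nM it ran from 1.42 to 31.4 CPM with a median of 3.78, and at 500 nM from 0.699 to 16.2 with a median of 1.75. S9CC47_R8 was the highest in both groups. The log2 fold change was -1.28 ± 0.16 (adjusted p = 8.9e-07) and was -1.36 without S9CC47_R8 (adjusted p = 8.0e-06). WT cells of the same differentiation R8 were also high at this RE, with 39.8 CPM at 0 nM and 39.7 at 500 nM. WT replicate RSh had 12.3 and 12.2. Of the GLI2 REs, 3 rose: GLI2 -6.0 kb by 0.69 ± 0.16, GLI2 +179.4 kb by 0.48 ± 0.11 and GLI2 +61.7 kb by 0.39 ± 0.10.

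GLI3, the GLI factor that acts mostly as a repressor, had the largest decrease of all 269 REs. GLI3 +324.6 kb (chr7:41912354-41912854) is intergenic, 48.1 kb past the 3′ end of the gene, and GLI3 is its nearest protein-coding start. It is a weak element: accessibility ran from 1.17 to 3.96 CPM at 0 nM (median 2.34) and from 0.135 to 0.471 at 500 nM (median 0.18). The groups did not overlap and the log2 fold change was -3.28 ± 0.27 (adjusted p = 1.1e-09). A pair of neighbouring intronic elements, GLI3 +80.3 kb (chr7:42156395-42157395) and GLI3 +82.3 kb (chr7:42154664-42155164), fell by 1.13 ± 0.15 and 1.03 ± 0.17 without overlap of the groups. Another RE beside them, GLI3 +85.7 kb, which overlaps an untranslated exon, fell by 1.02 ± 0.17. Decreases also lay upstream, at GLI3 -105.5, -110.8 and -112.4 kb, and the only increase was GLI3 +4.8 kb (0.41 ± 0.13). The promoter RE was at 50.2 to 63.7 CPM at 0 nM and at 55.8 to 65.0 at 500 nM, and did not pass the test (0.09 ± 0.05, adjusted p = 0.22).

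GLI1, a target of the pathway and an activator, had no RE that fell at 48 h. Its 2 increases lay in its own first introns: GLI1 +2.9 kb went from a median of 20.1 CPM (18.2 to 27.0) to 24.4 (19.8 to 29.7), a change of 0.20 ± 0.06, and GLI1 +1.5 kb rose by 0.19 ± 0.07. The groups overlapped at both. The call at GLI1 +2.9 kb was lost without S9CC13_R10 (adjusted p = 0.055), and that at GLI1 +1.5 kb without S9CC13_R10, S9CC13_R14, S9CC47_R5 or S9CC47_R8 (0.056 to 0.11). GLI1 lies among closely spaced genes, and 17 of its 20 REs had another gene's start as the nearest, in places that include MARS1, DDIT3 and KIF5A.

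PTHLH encodes the secreted ligand of the cartilage feedback loop, and only 1 of its 14 REs changed. PTHLH -39.2 kb (chr12:28011656-28012156, intergenic) was at 0.513 to 4.18 CPM at 0 nM and at 0.323 to 2.84 at 500 nM, with medians of 1.70 and 1.18 and overlapping groups. It fell by 0.64 ± 0.17 on the log2 scale (adjusted p = 0.0060) in 6 of 7 replicates. PTH1R, the receptor for that ligand, had its changes away from its own gene for the most part. PTH1R +78.7 kb (chr3:46956200-46956700) lies in an intron of CCDC12, whose start is its nearest, and went from a median of 1.52 CPM (1.1 to 2.18) to 0.727 (0.341 to 1.81), a change of -1.1 ± 0.21 (adjusted p = 2.7e-04). PTH1R +82.7 kb in the same gene fell by 0.50 ± 0.12, PTH1R +58.0 kb rose by 0.58 ± 0.15, and PTH1R +4.8 kb, inside PTH1R, rose by 0.32 ± 0.09.

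NKX3-2, a homeodomain repressor of chondroprogenitors, and TRPS1, a GATA-type zinc finger repressor of chondrocyte maturation, had more REs that rose than fell, although most of their REs did not pass the test. The NKX3-2 promoter RE (chr4:13544874-13545374) was at 17.6 to 28.9 CPM at 0 nM (median 20.3) and at 18.5 to 31.8 at 500 nM (median 25.0). The groups overlapped, and the change was 0.20 ± 0.06 (adjusted p = 0.029), a call lost without S9CC13_R10 or S9CC13_R6 (0.059 and 0.054). NKX3-2 +19.4 kb rose by 0.65 ± 0.16 and an RE nearer to RAB28 by 0.19 ± 0.07, and NKX3-2 -83.3 kb, which lies nearer to BOD1L1, rose by 0.29 ± 0.07.

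All 10 changed REs of TRPS1 lie in its body. TRPS1 +254.0 kb, which overlaps a coding exon, was the 1 RE with a gain whose groups did not overlap: it ran from 0.945 to 1.5 CPM at 0 nM (median 0.974) and from 1.65 to 2.53 at 500 nM (median 2.25). Its log2 fold change was 0.98 ± 0.16 (adjusted p = 3.2e-05). TRPS1 +202.3 kb rose by 0.85 ± 0.18 and the other 6 by 0.30 to 0.60. Both decreases were small, at TRPS1 +121.4 kb (-0.48 ± 0.17) and TRPS1 +228.6 kb (-0.28 ± 0.10), and the latter lost its call in 6 of 7 leave-out fits, all but the one without S9CC47_R6 (0.052 to 0.14). Many TRPS1 elements were weak, with a median mean count of 84.1 against 169 over the loci.

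The number of changed REs fell with the dose of dTAGV-1. At 16 nM, 27 of 269 fell (10.0%, beside 9.12% of all REs) and 10 rose (3.72%, beside 7.12%). At 5 nM, which left 25.8% of SOX9 by the labels, 14 fell (5.2%, beside 4.24%) and 2 rose (0.743%, beside 1.08%). Of the 14, 6 were near GLI2, 5 near GLI3, and 1 each near PTCH1, PTH1R and SMO, and the 2 that rose were in TRPS1. Leaving out S9CC47_R6, whose 5 nM library correlated least with its own control (a choice made after seeing the data), gave 26 calls at 5 nM in place of 16, 20 lower and 6 higher. At 1.6 nM no locus RE passed by edgeR (0.0383% of all REs did) or by DESeq2. An unadjusted p under 0.05 was reached by 11 with edgeR and 10 with DESeq2, beside 7809 and 5994 of all 151457 REs. At 0.5 nM none passed with either tool (0% of all REs). Here 6 with edgeR and 7 with DESeq2 had an unadjusted p under 0.05, beside 5219 and 3580 of all REs. A fit with the replicate as a block in place of the batch gave 61 calls at 16 nM in place of 37, and 2 at 1.6 nM: GLI3 +324.6 kb (-0.60, adjusted p = 0.0054) and GLI2 +51.8 kb (-0.21, adjusted p = 0.045).

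The ED50, the SOX9 level at the midpoint of the response in a Hill fit, had a median of 20.4% for the 41 REs that fell and 14% for the 23 that rose, beside 21.4% and 17.1% over all such REs. It was under 30% in 30 of the 41 (73.2%, beside 69.9% of all REs that fell) and over 40% in 6. The most sensitive of the 3 large decreases was GLI3 +324.6 kb, with an ED50 of 41.9% (39.9 to 44.1 when each replicate was left out in turn). GLI2 +51.8 kb followed at 28.2% (26.8 to 29.6) and SMO +25.5 kb at 21.9% (20.4 to 23.1), and these 3 ranges did not overlap. The leave-out fits share most replicates, so the ranges are not confidence intervals, and the order was not tested. At 5 nM the mean share of the full log2 change already reached was 63.5 ± 22.6% at GLI3 +324.6 kb (SD, n = 7). It was 40.6 ± 8.94% at GLI2 +51.8 kb and 34.0 ± 10.6% at SMO +25.5 kb. These shares were taken on log2 of CPM plus 0.5. That addition exceeds the mean of GLI3 +324.6 kb at 500 nM (0.258 CPM), so its share cannot be set directly beside the others. PTCH1 +9.2 kb had an ED50 of 20.4% (15.9 to 26.8). GLI2 +247.6 kb was more buffered, at 12.1%, although its leave-out range reached 24.9. The highest values among REs that fell were at GLI2 +202.3 kb (60.9%, 45.2 to 69.0), PTH1R +78.7 kb (52.5%, 36.1 to 64.0) and GLI3 +60.6 kb (51.2%, 48.7 to 55.2), all weaker responses, with log2 fold changes of -0.77, -1.1 and -0.35.

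**Figure D3:**
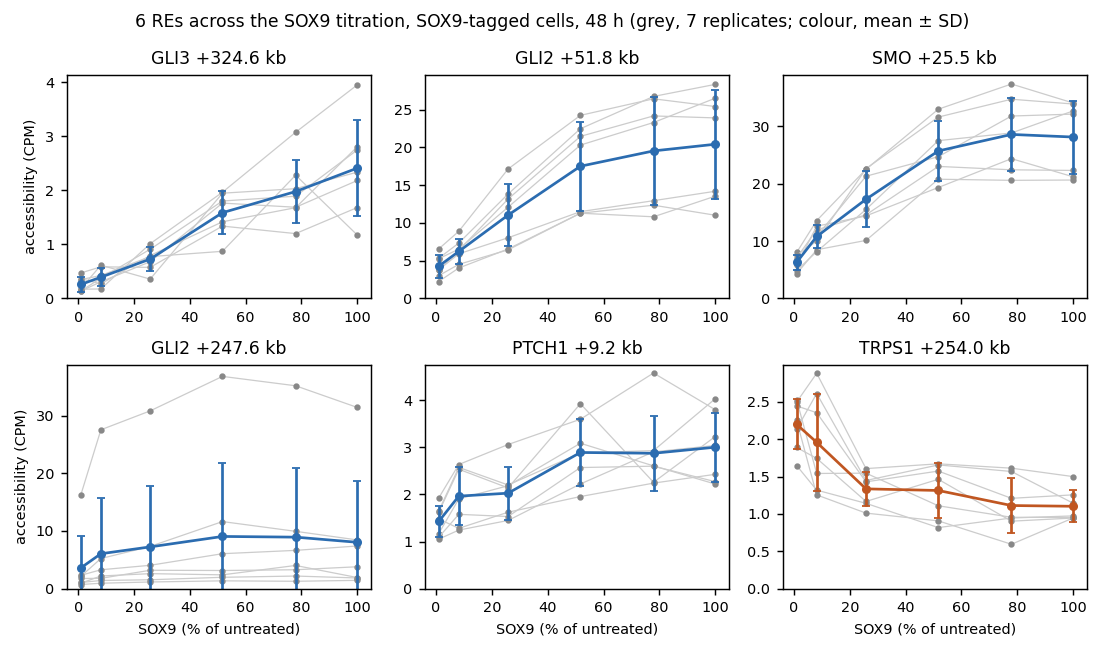
Accessibility (CPM, vertical axis) against SOX9 level (% of untreated by the labels, horizontal axis) of 6 REs in SOX9-tagged cells at 48 h, with each of 7 replicates in grey and the mean ± SD in colour. The mean of GLI3 +324.6 kb falls at every step of depletion, S9CC47_R8 is the single high line at GLI2 +247.6 kb, and TRPS1 +254.0 kb rises as SOX9 falls.

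In the time course, 23 of the 269 REs were lower after 3 h of 500 nM in SOX9-tagged cells (8.55%, beside 7.43% of all REs) and 5 were higher (1.86%, beside 0.912%). After 24 h, 29 were lower (10.8%, beside 9.93%) and 11 higher (4.09%, beside 4.70%). Leaving out a replicate left 1 library in each SOX9-tagged group, which was then assumed to vary like the WT libraries fitted with it. Without R4 the counts were 9 at 3 h and 12 at 24 h, all lower, and without R5 they were 22 and 25. Of the 41 REs that fell at 48 h, 19 (46.3%, beside 43.3% of all such REs) were already lower at 3 h. GLI3 had 9 of the 23 early decreases, GLI2 6, SMO and HHIP 2 each, and GLI1, PTCH1, PTHLH and PTH1R 1 each, while NKX3-2 and TRPS1 had none. None of the 23 REs that rose at 48 h was higher at 3 h (0%, beside 1.61% of all such REs), and 7 were higher at 24 h (30.4%, beside 26.2%).

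The 3 largest decreases had passed the test by 3 h, and each was larger at 24 h. At GLI3 +324.6 kb the vehicle libraries R4 and R5 had 4.13 and 1.41 CPM, the 3 h libraries 0.799 and 0.201, and the 24 h libraries 0.480 and 0.0922. The log2 fold changes were -2.59 ± 0.28 at 3 h (adjusted p = 2.0e-06) and -3.37 ± 0.30 at 24 h. At GLI2 +51.8 kb the pairs were 29.0 and 17.8 with vehicle, 8.19 and 5.08 at 3 h, and 6.60 and 4.98 at 24 h, a change of -1.88 ± 0.12 at 3 h (adjusted p = 2.2e-09). SMO +25.5 kb went from 40.3 and 18.7 to 12.1 and 7.25 at 3 h and to 7.94 and 4.41 at 24 h, a change of -1.62 ± 0.11 at 3 h (adjusted p = 6.4e-09). In all 3 REs both treated libraries were below both vehicle libraries at each time. PTCH1 +9.2 kb was slower, with 3.19 and 3.15 CPM with vehicle, 2.58 and 3.12 at 3 h (-0.22 ± 0.18, adjusted p = 0.63) and 1.71 and 1.82 at 24 h (-0.90 ± 0.19, adjusted p = 0.0023).

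**Figure D4:**
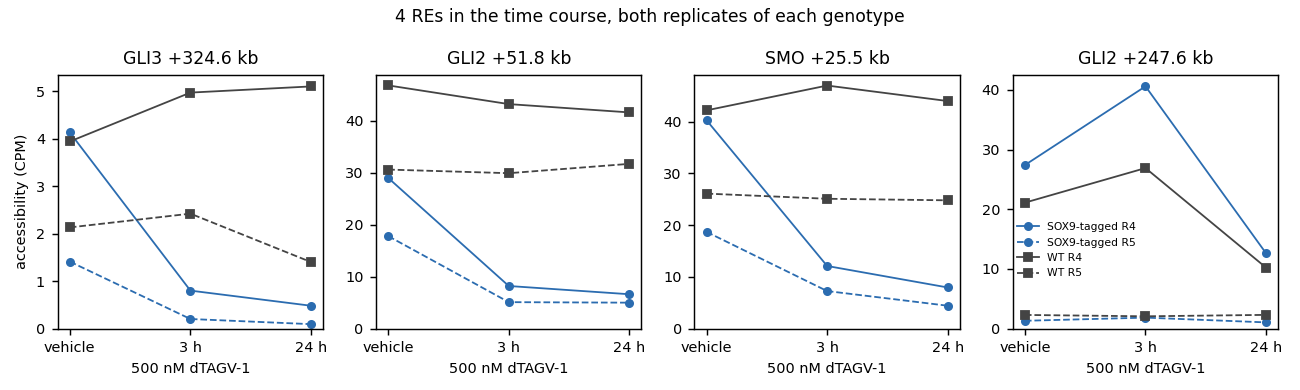
Accessibility (CPM, vertical axis) of 4 REs with vehicle and after 3 h and 24 h of 500 nM dTAGV-1, in SOX9-tagged (blue circles) and WT (grey squares) replicates R4 (solid) and R5 (dashed). At the first 3 REs both SOX9-tagged libraries at 3 h lie below every vehicle library, whereas GLI2 +247.6 kb is high in R4 of both genotypes and falls in R4 of both at 24 h.

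In GLI2 introns, 3 REs were higher at 3 h and lower at 48 h: GLI2 +90.0 kb (0.56 ± 0.14, then -0.70 ± 0.13), GLI2 +112.0 kb (0.34 ± 0.09, then -0.52 ± 0.09) and GLI2 +247.6 kb (0.47 ± 0.14, then -1.28 ± 0.16). GLI2 +90.0 kb and +112.0 kb were named after their values were seen. They are 3 of the 41 REs that fell (7.32%), beside 310 of 21114 (1.47%) over the table. All 3 vary strongly between replicates. GLI2 +247.6 kb had 27.4 and 1.30 CPM with vehicle in R4 and R5, 40.6 and 1.83 at 3 h, and 12.6 and 1.03 at 24 h. In WT cells the same RE had 21.1 and 2.28 with vehicle, 26.9 and 2.05 at 3 h, and 10.2 and 2.29 at 24 h, so that R4 of WT moved in the same directions as R4 of SOX9-tagged cells. The difference between genotypes did not pass the test at either time (0.28 ± 0.31, adjusted p = 0.81, and -0.35 ± 0.33, adjusted p = 0.68). It did not pass at 3 h for GLI2 +90.0 kb and +112.0 kb either. No RE of the GLI2 locus passed it at 3 h with the more positive change in SOX9-tagged cells (0 of 53). The other 2 early increases, GLI1 -4.6 kb and GLI1 -5.1 kb, lie in the neighbouring INHBE, rose by 0.68 ± 0.14 and 0.78 ± 0.19, and were at -0.07 at 48 h. The difference between genotypes did not pass at either (adjusted p = 0.60 and 0.28), and the call at GLI1 -5.1 kb was lost without R4 (0.49, adjusted p = 0.74).

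**Figure D5:**
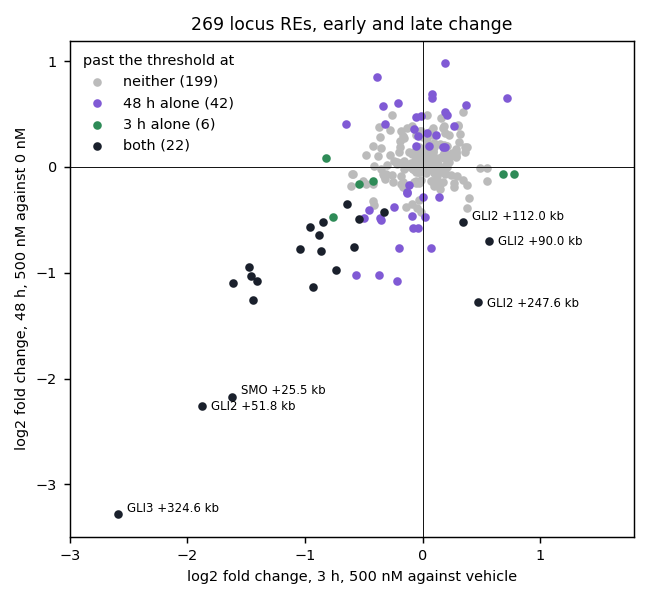
Log2 fold change of the 269 locus REs at 3 h (horizontal axis) and at 48 h (vertical axis) of 500 nM in SOX9-tagged cells, coloured by the time at which they passed the test. Labels mark the 3 largest decreases and the 3 GLI2 REs that lie to the right of 0 at 3 h and below 0 at 48 h, and 22 REs passed at both times.

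By edgeR, no locus RE passed the test in WT cells at 3 h or at 24 h (0% of all REs at both), and none did by DESeq2. With edgeR, 2 of the 269 at 3 h and 11 at 24 h had an unadjusted p under 0.05, beside 3656 and 4642 of all REs. With DESeq2 these were 0 and 1, beside 533 and 962. Direct tests of the difference between genotypes called 12 REs at 3 h and 16 at 24 h, each with the more negative change in SOX9-tagged cells (4.46% and 5.95%, beside 5.13% and 6.28% of all REs). Without R4 of the SOX9-tagged cells these counts were 7 and 5, and the 24 h count was 8 without R4 of WT. The 12 at 3 h were 4 in GLI2, 4 in GLI3, 2 in HHIP, and 1 each in the SMO and PTH1R loci. The differences were -2.87 ± 0.36 at GLI3 +324.6 kb, -1.83 ± 0.16 at GLI2 +51.8 kb, -1.69 ± 0.16 at SMO +25.5 kb, -1.76 ± 0.35 at PTH1R +78.7 kb, -0.93 ± 0.20 at HHIP +2.2 kb and -0.96 ± 0.24 at HHIP -11.2 kb. PTCH1 +9.2 kb joined at 24 h (-0.83 ± 0.25, adjusted p = 0.042). The early decreases at GLI1 and PTHLH did not pass this test, with adjusted p of 0.15 at GLI1 +22.1 kb and 0.067 at PTHLH -39.2 kb, and neither was PTCH1 +61.1 kb (0.66), which fell by 0.82 ± 0.21 at 3 h in SOX9-tagged cells and had -0.41 ± 0.22 in WT. The 3 h call at PTCH1 +61.1 kb was lost with DESeq2 (adjusted p = 0.13), without R4 (0.16) and without R5 (0.26). That at PTHLH -39.2 kb was lost with DESeq2 and without R4, and that at HHIP +2.2 kb without R4.

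After 48 h at 500 nM in WT cells, 1 of the 269 REs passed the test (0.372%, beside 0.303% of all REs). This was SMO -86.0 kb (chr7:129102365-129102865), which went from 4.18 and 8.30 CPM to 2.25 and 7.27, a change of -0.49 ± 0.13 (adjusted p = 0.044), opposite to its rise in SOX9-tagged cells. The call was lost with DESeq2, and without either replicate in a fit where the single remaining WT library of each group was assumed to vary like the SOX9-tagged libraries. GLI3 +324.6 kb had 1.73 and 5.32 CPM without and 3.04 and 5.93 with dTAGV-1 in WT, GLI2 +51.8 kb 36.6 and 29.2 against 35.5 and 31.5, and SMO +25.5 kb 31.1 and 38.4 against 33.7 and 42.4. None of these 3 fell past the threshold in WT, and their log2 fold changes were 0.42 ± 0.14, 0.02 ± 0.07 and 0.12 ± 0.07.

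Without dTAGV-1, SOX9-tagged and WT cells differed at 4 of the 269 REs (1.49%, beside 0.950% of all REs) in the batches R4, R5 and R8, which held both genotypes. There were 8 such REs without R4 and 2 without R5. GLI2 +51.8 kb was lower in SOX9-tagged cells (-0.64 ± 0.08, adjusted p = 7.5e-04), with 29.0 and 17.8 CPM against 46.8 and 30.6 in the vehicle libraries of the same replicates. GLI3 -112.4 kb (-1.09 ± 0.14) and GLI3 +44.1 kb (-0.71 ± 0.15) were also lower, and GLI2 +216.0 kb was higher (0.68 ± 0.16). All 4 fell with full depletion, the last 3 by 1.02 ± 0.15, 0.95 ± 0.14 and 1.08 ± 0.14 on the log2 scale. Over all REs 13.9% fell, and the share among all REs that differ between the genotypes was not counted. The untreated SOX9-tagged libraries used here are also controls of the depletion comparisons, so the 2 kinds of change are not independent. GLI3 +44.1 kb and GLI2 +216.0 kb were already lower at 3 h (-1.48 ± 0.18 and -1.41 ± 0.23), while GLI3 -112.4 kb was not called then (-0.37 ± 0.21, adjusted p = 0.41). These last 3 REs were named after their values were seen.

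The other genes of the pathway were counted by the same rule. Around 19 of them, 462 REs included 56 that fell (12.1%) and 42 that rose (9.09%) at 500 nM, beside 13.9% and 10.2% of all REs. Those near ligands and genes for ligand release gave 12 lower (8.89%) and 10 higher (7.41%) of 135, and those near SUFU, KIF7, GPR161 and other intracellular components 25 (11.8%) and 23 (10.9%) of 211. CDON and BOC, membrane proteins that help ligands bind PTCH1, had CDON -71.3 kb at -2.54 ± 0.12 and BOC +64.5 kb at -2.10 ± 0.08. HHAT, which attaches palmitate to Hedgehog ligands, had HHAT +65.0 kb at -4.01 ± 0.22 (chr1:210393608-210394108), a larger decrease than any at the 10 member genes. At 48 h no RE passed the test near the ligands SHH (10 REs) and IHH (17) or the co-receptor GAS1 (15). Near GAS1, 1 RE was lower at 3 h.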

How the data were processed

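ATAC-seq libraries of CNCCs were analysed from the deposited table of raw counts per RE (58 samples, 22.91 to 81.04 M counts each). As the study's methods describe, the authors trimmed reads, aligned them to hg38 with Bowtie2 2.4.1, removed duplicates, mitochondrial and low-quality reads with SAMtools 1.10, shifted the ends to the transposase cut sites, called summits with MACS2 2.2.7.1, and merged those seen in several differentiations into 151457 REs with bedtools. The counts are not normalised for depth, and counting error is largest at weak REs.

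Counts were fitted over all REs with edgeR 4.0.16 (R 4.3.3, TMM, quasi-likelihood test, Benjamini-Hochberg adjustment, threshold 0.05) with the differentiation batch as a covariate. DESeq2 1.42.0 was an alternative. Each of the 5 dose comparisons was a separate fit of the 7 libraries at that dose and the 7 at 0 nM. For tests between genotypes over time, genotype by batch was the block. The other alternatives were RLE scaling, a low-count filter, no batch, the replicate (clone and differentiation) as a block, leaving out each replicate, and, for the count of REs, loci of 50 kb or of the nearest coding start. The fits were tested on simulated counts with known changes. ED50 values came from Hill fits to CPM of all 42 libraries of the dose series. Locus, gene and promoter (within 1 kb of any start) annotation came from GENCODE v44, and motifs were searched on both strands.

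Named REs were the promoter RE, up to 3 lower and 2 higher REs per gene with the largest change at 500 nM among those changed the same way in all 7 replicates, the RE with the largest change at 3 h, and any RE called at 1.6 nM, 0.5 nM or in WT cells at 48 h. Other REs given by name were added after their values were seen. The members and lists were chosen with earlier results of these data known. Replicates with the same name deviated together: the lowest correlation of their deviations from the group means between 0 nM and another dose was 0.21 (5 nM) and the means were 0.64 to 0.76 over 7 pairs, and the labels give the shared clone and differentiation. No pair of libraries of the same group matched within sampling noise (134 pairs), and pairs from different groups were not compared in this way. For S9CC13_R14 the titles and the concentration labels of the 0 and 0.5 nM libraries conflict, and the titles were used. Results for part of the wider pathway list are not reported here.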

Additional observations from a re-analysis of the deposited data

Results flagged for a closer look

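At 5 combinations of RE and dose, S9CC47_R8 lay far above the other 6 replicates, by the gap to the next replicate relative to the whole range. GLI2 +247.6 kb had 31.4 CPM at 0 nM, against 8.43 for the next replicate, and 16.2 at 500 nM, against 2.29. HHIP -11.2 kb had 16.9 at 0 nM, against 7.59, and 7.30 at 500 nM, against 3.07. PTHLH -39.2 kb had 2.84 at 500 nM, against 1.38. PTH1R +78.7 kb had 1.81 CPM at 500 nM in S9CC47_R5, against 0.888 for the next replicate. These are 6 of 74 groups checked, and chance alone marks about 1 in 20.

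The effect of 500 nM differed between SOX9-tagged and WT cells at 12 locus REs after 3 h and at 16 after 24 h, by the edgeR test of the interaction.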

How the results depend on the processing

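None of the REs tested under the alternatives (25 at 500 nM, 8 at 3 h and 1 in WT at 48 h) changed direction. Of 300 values for 25 named REs at 500 nM, 264 kept their call and 36 lost it, 13 of them without the batch and 18 when a replicate was left out. At 3 h, 33 of 48 values for 8 named REs kept it.

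Without any batch term or replicate block, the counts were 24 at 500 nM, 13 at 16 nM, 1 at 5 nM, 0 in WT at 48 h, 0 at 3 h, 0 at 24 h, 0 and 1 for the difference between genotypes at 3 h and 24 h, and 0 for untreated SOX9-tagged against WT. With the replicate block in place of the batch, they were 61 at 16 nM and 2 at 1.6 nM, and at 500, 5 and 0.5 nM they stayed within 1.5 times. DESeq2 gave 25 at 24 h and 0 in WT at 48 h. Leaving out 1 replicate gave 52 to 70 at 500 nM, 9 to 22 at 3 h, 12 to 25 at 24 h, 7 to 12 and 5 to 16 for the difference between genotypes, 2 to 8 for untreated cells, 0 in WT at 48 h, and 14 to 26 at 5 nM (without S9CC13_R14 or S9CC47_R6, the latter chosen after seeing the data). The median ED50 was 16.3 on the log2 CPM scale and 18.9 to 24.9 over the leave-out fits. The cause of these shifts was not tested. With 2 libraries a group, a leave-out fit takes its spread from the other genotype, so a lower count cannot be read as a property of the library left out.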
